A study of Mus musculus with 24 samples.

Results

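Istradefylline or vehicle was given to wildtype mice after sham surgery or unilateral ureteral obstruction (UUO), and RNA of the left kidney was sequenced. The comparison described here set all drug-treated kidneys against all vehicle-treated kidneys with surgery as a covariate. Gene positions are those of the deposited table, on GRCm38, and span the whole gene. The comparison used all 24 libraries of the series: 8 of vehicle (4 sham, 4 UUO), 8 of an early intervention with the drug (4 sham, 4 UUO) and 8 of a late intervention (4 sham, 4 UUO). The 16 drug libraries were taken by their labels, not by any measured value. Of 14407 genes in the deposited table, 13127 had at least 1 FPKM in at least 4 libraries and were tested. FPKM scales fragments to transcript length and library depth, and every difference below is drug minus vehicle in log2(FPKM + 1), which understates the change of low genes. The labels give no dose, no days of dosing, no hour of collection, no strain, sex or age, and do not state that each library is a separate mouse. P-values therefore measure the spread between libraries, which may be technical.

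Istradefylline is a xanthine that blocks the adenosine receptor encoded by Adora2a, a Gs-coupled receptor that raises cyclic AMP. UUO ties off 1 ureter and leads to tubular loss, inflammation and fibrosis of that kidney. The circadian clock, to which several results below belong, is a feedback loop in which BMAL1 (Arntl) with CLOCK or NPAS2 binds E-boxes and drives Per, Cry, Ciart and the output factor Dbp, whose products feed back or act on further genes. In mouse tissues, including kidney, Arntl and Npas2 RNA peak at the opposite time of day from Dbp and Per2.

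The surgery labels matched an injury gene. Havcr1 (KIM-1), a marker of injured proximal tubule, lay between 0.259 and 1.5 FPKM in the 12 sham libraries and between 92.5 and 370 in the 12 UUO libraries, and all listed markers of kidney tubule, podocyte and endothelium were in the table. Estimated depth averaged 8.21 M (mega) fragments in sham late and 9.7 to 11.5 M in the other groups. UUO early 4 stood apart from all other libraries on the second principal component, which holds 3.57% of the variance, and carried skeletal muscle RNA: Acta1, muscle actin, was at 1000 FPKM there, at 52.3 in UUO early 2, at 23.0 in UUO early 1 and at most at 2.38 elsewhere. Counts are given with and without this library.

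Across surgeries, 12 of 13127 genes (0.0914%) passed limma's test at a Benjamini-Hochberg adjusted p of 0.05. Of these, 5 rose (0.0381%), among them the clock genes Ciart, Dbp and Usp2 and the sulfation gene Papss1. The other 7 fell (0.0533%): P2rx1, Foxs1 and Pcdh12, which are known from vessel walls and endothelium, and Rpl37a, Mrpl52, Eif5b and Rpl36a-ps1, which belong to or derive from the translation machinery. All 12 had the same sign within sham and within UUO kidneys and in the early and the late course. The fit that chose the 12 used these same libraries and favours such agreement, so the agreement is no separate support. Of all tested genes, 47.2% had the same sign in sham and in UUO. At an unadjusted p under 0.05, 410 genes were higher and 1078 lower, and the median difference of all tested genes was -0.03. Without UUO early 4, 25 genes passed, among them all 12, and 51 passed in sham, 4 in UUO, 2 in the early and 57 in the late course.

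The number of calls rested on single libraries. It was 0 without sham vehicle 4 or without UUO vehicle 3, 1 without sham early 4 or UUO late 2, 3 without UUO vehicle 2, UUO early 3 or sham late 1, 5 without sham early 2 or sham late 2, 6 without UUO early 1 and 7 without sham late 4. It was 27 without UUO vehicle 1, 25 without UUO early 4, 22 without UUO late 4, and 8 to 17 without any of the remaining libraries. Scaling each library by a median of ratios moved the split to 7 higher and 3 lower. Scaling each to the same sum of FPKM left 1 call, P2rx1.

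Ciart (chromosome 3, 95878503 to 95882251, minus strand) encodes CHRONO, a repressor of CLOCK and BMAL1. In sham vehicle kidneys it was at 4.38, 4.71, 3.40 and 2.02 FPKM, and in the 8 sham drug kidneys at 4.66 to 12.9, median 6.34. In UUO vehicle kidneys it was at 0.928, 0.847, 1.02 and 1.36 FPKM, and in the 8 UUO drug kidneys at 1.23 to 3.38, median 2.32. In each surgery, 7 of 8 drug libraries lay above all vehicle libraries. The surgery-adjusted difference was 0.74 (SE 0.139, n = 16 against 8, limma adjusted p = 0.0332).

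Dbp (chromosome 7, 45705088 to 45710203, plus strand) encodes a PAR bZIP transcription factor of clock output that binds D-boxes. It was at 73.2, 58.1, 89.3 and 50.7 FPKM in sham vehicle and at 73.9 to 127, median 84.3, in sham drug kidneys. In UUO kidneys the level was 19.2, 27.2, 22.2 and 32.9 FPKM with vehicle and 33.8 to 56.0, median 52.3, with drug. The groups overlapped in sham, where 3 of 8 drug libraries exceeded every vehicle library, and did not overlap in UUO. The difference was 0.67 (SE 0.124, limma adjusted p = 0.0329), with 0.40 in sham and 0.94 in UUO. The interaction of drug and surgery gave an unadjusted p of 0.0292 and a limma adjusted p of 0.419.

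Usp2 (chromosome 9, 44067021 to 44095627, plus strand) encodes a ubiquitin-specific protease whose RNA follows the clock. Sham vehicle kidneys held 35.6, 35.8, 40.1 and 27.0 FPKM, and sham drug kidneys 39.2 to 60.6, median 49.5. UUO vehicle kidneys held 11.8, 10.6, 11.2 and 12.2 FPKM, and UUO drug kidneys 13.2 to 27.3, median 17.6. Only 1 sham drug library lay within the vehicle range, and the UUO groups did not overlap. The difference was 0.58 (SE 0.107, limma adjusted p = 0.0329).

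The promoter windows of the 3 clock genes that rose are shown to compare their E-boxes, the CLOCK and BMAL1 element CACGTG, which reads the same on both strands and is set in capitals. Each is 250 bases before to 50 after the RefSeq start on GRCm38.p6: Ciart at chr3:95882179-95882478 on the minus strand, Dbp at chr7:45704997-45705296 and Usp2 at chr9:44084670-44084969, both on the plus strand.
Ciart: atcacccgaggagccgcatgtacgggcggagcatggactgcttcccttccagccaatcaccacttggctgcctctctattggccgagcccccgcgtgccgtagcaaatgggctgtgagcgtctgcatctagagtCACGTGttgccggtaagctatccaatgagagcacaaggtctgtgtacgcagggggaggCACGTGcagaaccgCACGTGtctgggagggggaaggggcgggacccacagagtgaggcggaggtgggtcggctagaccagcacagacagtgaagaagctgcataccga
Dbp: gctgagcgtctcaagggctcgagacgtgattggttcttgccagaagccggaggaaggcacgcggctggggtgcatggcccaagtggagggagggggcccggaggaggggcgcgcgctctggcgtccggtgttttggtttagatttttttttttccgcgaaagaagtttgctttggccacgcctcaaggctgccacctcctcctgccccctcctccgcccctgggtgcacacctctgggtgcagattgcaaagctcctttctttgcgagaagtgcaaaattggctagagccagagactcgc
Usp2: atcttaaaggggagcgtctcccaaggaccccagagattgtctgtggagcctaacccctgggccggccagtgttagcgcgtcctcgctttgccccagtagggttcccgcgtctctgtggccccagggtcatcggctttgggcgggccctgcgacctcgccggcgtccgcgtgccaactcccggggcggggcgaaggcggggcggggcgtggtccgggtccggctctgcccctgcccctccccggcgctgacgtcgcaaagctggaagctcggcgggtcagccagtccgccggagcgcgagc
The Ciart window held 3 E-boxes, starting 116, 58 and 44 bases before the start. The Dbp and Usp2 windows did not hold these letters, nor TTATGTAA or TTACGTAA, the D-box forms searched on both strands, which says only that they are not in this stretch. The Usp2 window lies inside the gene span given above, downstream of its 5' end. The stretch before that end was not searched for Usp2. Of 10161 tested genes with such a window, 1170 (11.5%) held an E-box and 91 (0.896%) a D-box of either form. Of core clock genes with a window, 4 of 13 held an E-box (Bhlhe41, Ciart, Cry1, Per1), and of clock output genes 3 of 12 (Fkbp5, Sgk1, Tef). Neither motif contains the other. A match describes the letters and is no measured binding site.

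**Figure D1:**
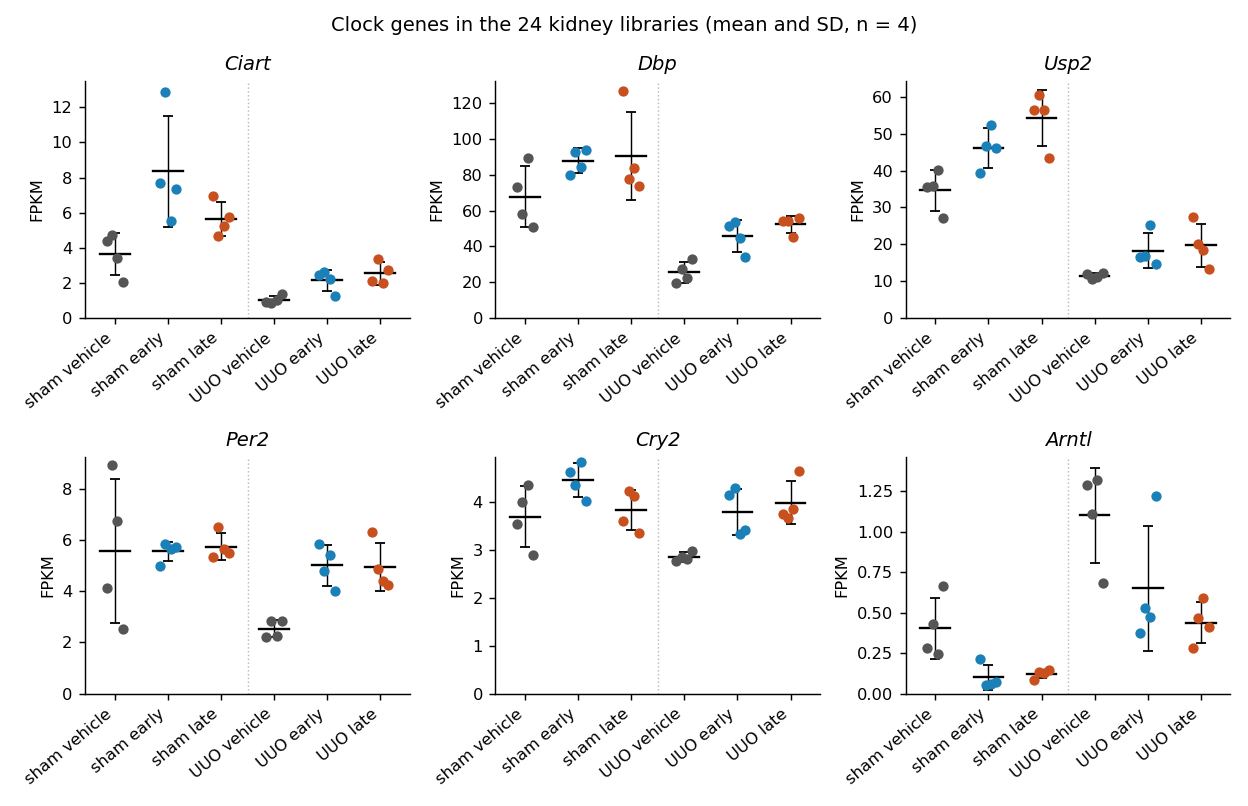
FPKM of 6 clock genes in each of the 24 libraries by group, with mean and SD (n = 4); grey is vehicle, blue early, orange late. Dbp, Usp2, Per2 and Cry2 of all 8 UUO drug libraries lie above the 4 UUO vehicle libraries, and Arntl of all 8 sham drug libraries lies below the 4 sham vehicle libraries.

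The plot of clock genes by group also includes Arntl, a gene of the activating side of the loop. Arntl, which encodes BMAL1, was at 0.282, 0.427, 0.246 and 0.662 FPKM in sham vehicle and at 0.0512 to 0.212, median 0.105, in sham drug kidneys. The UUO values were 1.29, 1.11, 1.32 and 0.681 FPKM with vehicle and 0.284 to 1.22, median 0.469, with drug. The sham groups did not overlap, and 7 of 8 UUO drug libraries lay below every vehicle library. The difference of -0.39 (SE 0.0805) missed the threshold across surgeries (limma adjusted p = 0.0569). Arntl reached the filter's 1 FPKM only in UUO libraries, mainly with vehicle, and all its sham values lay under that level. Npas2, a partner of BMAL1 named after its values were seen, averaged 0.373 FPKM with vehicle and 0.193 with drug in sham, and 1.5 and 1.10 in UUO (limma adjusted p = 0.236).

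Per2, which encodes a repressor of the loop, was chosen for the plot after its values were seen. It was at 2.23, 2.84, 2.26 and 2.84 FPKM in UUO vehicle and at 4.02 to 6.32, median 4.83, in UUO drug kidneys. In sham it was at 4.14, 8.94, 6.74 and 2.54 FPKM with vehicle and at 4.99 to 6.52, median 5.67, with drug, so the sham drug libraries lay inside the vehicle range. Cry2, another repressor, was at 2.77, 2.85, 2.81 and 2.99 FPKM in UUO vehicle and at 3.34 to 4.65, median 3.82, in UUO drug kidneys. In sham Cry2 was at 3.55, 4.00, 4.37 and 2.89 FPKM with vehicle and at 3.36 to 4.85, median 4.18, with drug, where the groups overlapped.

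In the core clock list, 1 of 17 tested genes rose (Ciart), 13 were above 0, and the median difference was 0.18, while of all tested genes 0.0381% rose, 40.7% were above 0 and the median was -0.03. In the clock output list, 2 of 14 rose (Dbp, Usp2), 12 were above 0 and the median was 0.33. Together the lists hold 30 genes, of which 15 were higher and 2 lower at an unadjusted p under 0.05, beside 410 higher and 1078 lower of all 13127. The lists were chosen with earlier results of these data known, so the counts in this paragraph are a description only. In UUO, 7 of the 30 had all 8 drug libraries above all 4 vehicle libraries (Dbp, Usp2, Per2, Per3, Cry2, Nr1d2, Tsc22d3), a separation that 0.518% of all tested genes showed and 0.244% showed downward. In sham none of the 30 did so upward, against 0.404% of all tested genes, and Arntl alone did downward, against 3.66%.

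The members did not move evenly. Nr1d1, which encodes the REV-ERBα repressor of Arntl, averaged 32.6 FPKM with vehicle and 29.4 with drug in sham and 21.7 and 30.1 in UUO, a difference of 0.10 (limma adjusted p = 0.887). The period gene Per1 gave 0.35 (limma adjusted p = 0.483). Per3, a period gene named after its values were seen, gave -0.04 in sham and 0.69 in UUO. Nampt, the NAD-salvage enzyme gene under clock control, averaged 25.6 and 30.4 FPKM in sham and 18.3 and 23.2 in UUO (0.30, limma adjusted p = 0.131). The median of the core clock list was 0.07 in sham and 0.36 in UUO, and that of the output list 0.20 and 0.44, but no gene passed the test of the interaction. Glucocorticoids also drive several output genes, and the glucocorticoid response list shares Fkbp5 and Tsc22d3 with the clock output list. The 14 tested genes of the response list had a median of 0.14 and no call, beside 0.0914% of all tested genes that passed. Of the 14, 3 were higher and 0 lower at an unadjusted p under 0.05. Fkbp5, a co-chaperone gene, gave 0.42 (limma adjusted p = 0.241), and the part of glucocorticoids was not tested. The labels give no hour of collection, so its part in the differences of the clock genes was not tested.

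Papss1 (chromosome 3, 131564768 to 131643671, plus strand) encodes the synthase of PAPS, the sulfate donor for sulfated glycans, steroids and drugs. It was at 29.4, 22.3, 35.3 and 32.3 FPKM in sham vehicle and at 35.0 to 42.9, median 35.6, in sham drug kidneys. In UUO it was at 19.2, 20.7, 17.0 and 19.6 FPKM with vehicle and at 22.6 to 30.2, median 24.4, with drug, with no overlap. The sham groups overlapped, 4 of 8 drug libraries lying above all vehicle libraries. The difference was 0.34 (SE 0.0667, limma adjusted p = 0.0414).

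P2rx1 (chromosome 11, 72999103 to 73015200, plus strand) encodes an ATP-gated cation channel of vascular smooth muscle and platelets, which mediates constriction of the afferent arteriole. It was at 1.00, 0.851, 0.668 and 1.06 FPKM in sham vehicle and at 0.169 to 0.575, median 0.299, in sham drug kidneys. The UUO values were 1.25, 1.53, 1.76 and 1.73 FPKM with vehicle and 0.468 to 1.35, median 0.843, with drug. Only UUO late 4 among the 16 drug libraries reached the vehicle range of its surgery. P2rx1 met the filter's 1 FPKM mainly through vehicle libraries, and all its sham drug values lay under that level. It was not tested where 1 FPKM was required in at least 12 libraries. The difference was -0.48 (SE 0.0761, limma adjusted p = 0.0218), and -1.01 with a pseudocount of 0.1 instead of 1.

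Foxs1 (chromosome 2, 152931898 to 152933208, minus strand) encodes a forkhead factor of pericytes and vascular smooth muscle. It was at 0.887, 1.17, 0.423 and 0.908 FPKM in sham vehicle and at 0.0963 to 0.375, median 0.278, with drug. In UUO it was at 4.94, 5.46, 6.21 and 6.07 FPKM with vehicle and at 2.40 to 5.32, median 3.75, with drug. The sham groups did not overlap, and 7 of 8 UUO drug libraries lay below every vehicle library. The difference was -0.53 (SE 0.0991, limma adjusted p = 0.0329), and -1.01 with a pseudocount of 0.1.

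Pcdh12 encodes VE-cadherin-2, a protocadherin of endothelium. It was at 1.27, 1.63, 1.16 and 1.18 FPKM in sham vehicle and at 0.663 to 1.17, median 0.792, with drug. In UUO kidneys the level was 2.89, 2.63, 2.78 and 2.58 FPKM with vehicle and 1.40 to 2.54, median 1.99, with drug, with no overlap. In sham, 7 of 8 drug libraries lay below every vehicle library. The difference was -0.34 (SE 0.0643, limma adjusted p = 0.0329), and -0.55 with a pseudocount of 0.1.

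**Figure D2:**
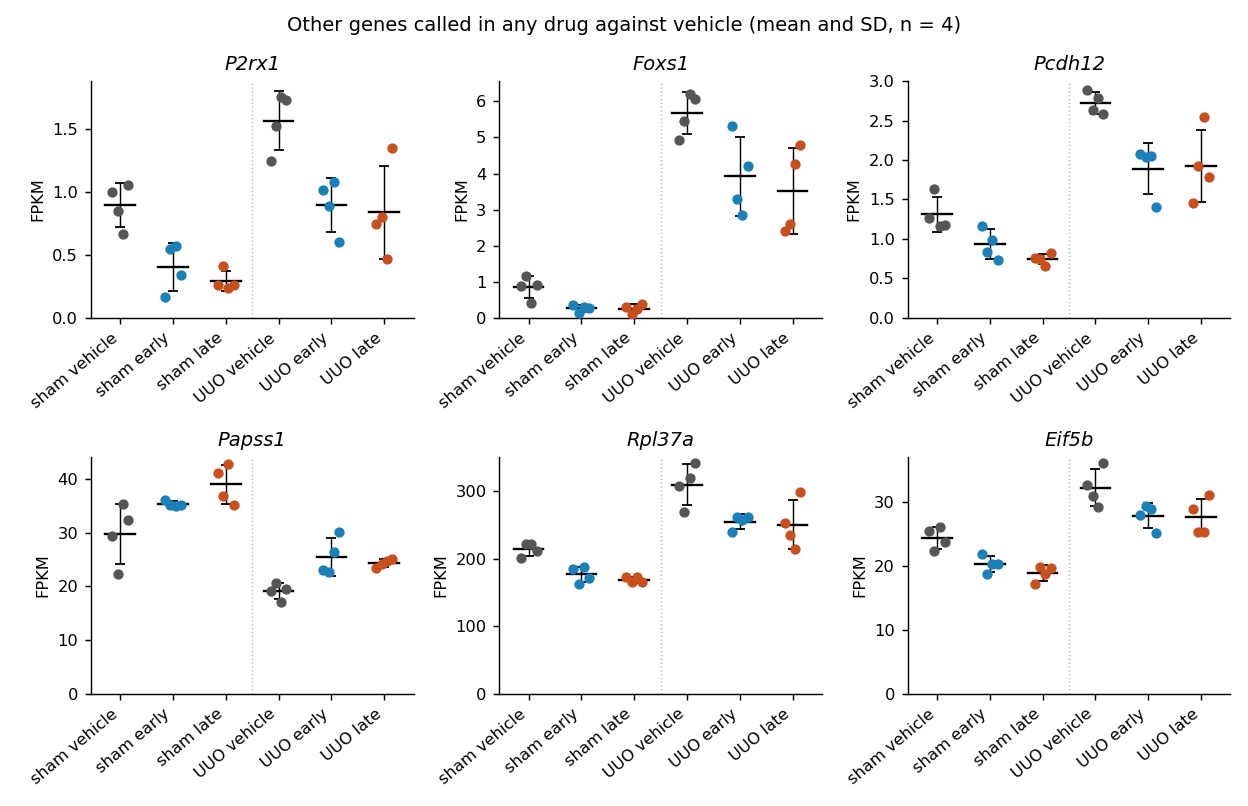
FPKM of 6 further genes that passed the test, in each of the 24 libraries by group, with mean and SD (n = 4); grey is vehicle, blue early, orange late. P2rx1, Foxs1, Pcdh12, Rpl37a and Eif5b are lower and Papss1 is higher with drug in both surgeries.

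Lists of genes of the same cell types held no call, beside 0.0914% of all tested genes that passed. The endothelial list had no call among 15 tested genes, none above 0, and a median of -0.24, with -0.45 in sham and -0.03 in UUO. Kdr, the VEGF receptor gene, gave -0.30 (limma adjusted p = 0.242) and Egfl7, a matrix protein gene of endothelium, -0.34 (limma adjusted p = 0.233). The pericyte and myofibroblast list had no call among 17 genes, and medians of -0.08, -0.45 in sham and 0.00 in UUO. Tagln, which encodes smooth muscle transgelin, gave -0.78 (limma adjusted p = 0.0915), and Acta2, smooth muscle actin, -0.53 (limma adjusted p = 0.298). In bulk tissue fewer cells of a type and less RNA per cell cannot be told apart. The summed level of 4 endothelial markers was 19.4 to 38.5 FPKM with vehicle, 13.6 to 25.3 with the early and 15.6 to 18.4 with the late course in sham, and 38.8 to 45.9, 34.1 to 49.3 and 26.6 to 59.4 in the same order in UUO. The part of these levels in the differences of P2rx1, Foxs1 and Pcdh12 was not tested.

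Rpl37a (chromosome 1, 72711290 to 72713813, plus strand) encodes a protein of the large ribosomal subunit. It was at 201, 221, 221 and 211 FPKM in sham vehicle and at 163 to 187, median 171, with drug. The UUO values were 308, 269, 320 and 342 FPKM with vehicle and 214 to 299, median 254, with drug. The sham groups did not overlap, and 7 of 8 UUO drug libraries lay below every vehicle library. The difference was -0.30 (SE 0.0521, limma adjusted p = 0.0276).

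Eif5b (chromosome 1, 37998010 to 38055579, plus strand) encodes the GTPase that joins the ribosomal subunits at the start codon. It was at 25.4, 22.3, 26 and 23.7 FPKM in sham vehicle and at 17.1 to 21.8, median 19.8, with drug. In UUO it was at 32.7, 30.9, 29.2 and 36.1 FPKM with vehicle and at 25.1 to 31.0, median 28.4, with drug. The groups did not overlap in sham, and 6 of 8 UUO drug libraries lay below every vehicle library. The difference was -0.26 (SE 0.0507, limma adjusted p = 0.0432).

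Mrpl52 (chromosome 14, 54426909 to 54429756, plus strand) encodes a protein of the large mitochondrial ribosomal subunit. It was at 45.2, 54.4, 63.3 and 54.1 FPKM in sham vehicle and at 42.2 to 48.1, median 46, with drug. In UUO kidneys the level was 78.0, 71.4, 72.6 and 84.3 FPKM with vehicle and 58.5 to 69.9, median 61.4, with drug, with no overlap. The sham groups overlapped, 3 of 8 drug libraries lying below all vehicle libraries. The difference was -0.26 (SE 0.0505, limma adjusted p = 0.0432).

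Rpl36a-ps1 (chromosome 14, 98993870 to 98994318, minus strand) is a pseudogene copy of Rpl36a, so its reads may come from the parent gene and its level is uncertain. It was at 7.87, 9.20, 7.92 and 7.57 FPKM in sham vehicle and at 3.09 to 7.38, median 4.10, with drug. The UUO values were 14.3, 14.6, 15.6 and 23.0 FPKM with vehicle and 6.30 to 14.4, median 9.24, with drug. The sham groups did not overlap, and 7 of 8 UUO drug libraries lay below every vehicle library. The difference was -0.71 (SE 0.142, limma adjusted p = 0.0437). None of these 4 genes passed after median-of-ratios scaling, where Rpl37a gave -0.26 (limma adjusted p = 0.0844), Eif5b -0.21 (0.103), Mrpl52 -0.21 (0.13) and Rpl36a-ps1 -0.68 (0.0641).

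Most ribosomal protein genes lay slightly below 0. Of 79 tested cytosolic ribosomal protein genes, taken by symbol, 1 fell (Rpl37a), 77 were below 0 and the median was -0.16, with -0.14 in sham and -0.17 in UUO. Of all tested genes 0.0533% fell, 40.7% were above 0 and the median was -0.03. Of 77 mitochondrial ribosomal protein genes, 1 fell (Mrpl52), 66 were below 0 and the median was -0.06. Many cytosolic ribosomal genes have near-identical copies in the genome, so single values are uncertain. These genes are also short, with a median transcript length of 712 bases for the cytosolic family against 2080 for all tested genes.

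Transcript length moved with the difference over all tested genes, as the plot by length class shows. The median was -0.05 in the shortest of 5 equal classes (66 to 1039 bases) and 0.00 in the longest; in UUO it went from -0.03 to 0.07 and in sham from -0.07 to -0.08. With each library's length slope as a further term, all 12 genes still passed, and 196 genes passed in all (20 higher, 176 lower); Rpl37a then gave -0.28 (limma adjusted p = 0.0257). The same fit within UUO left none of its 3 calls. This fit was chosen after the data were seen, and the slopes came from the same expression values. In UUO the slopes were -0.0361 to 0.00842 with vehicle, -0.0191 to 0.0246 with the early and 0.00294 to 0.027 with the late course. Drug and slope are thus partly joined in UUO, so the fit is no clean control for length.

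**Figure D3:**
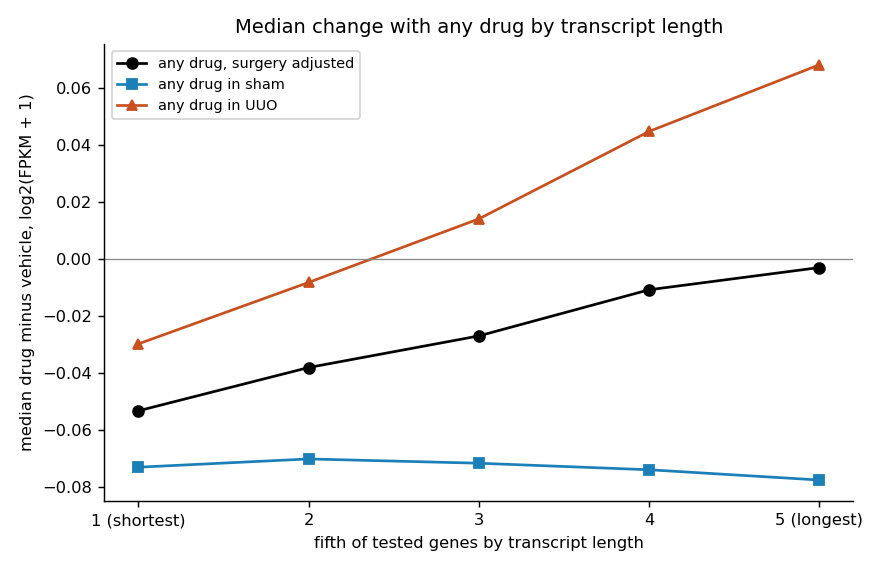
Median drug minus vehicle difference in log2(FPKM + 1) for the tested genes in 5 equal classes of transcript length, surgery adjusted (black circles) and within sham (blue squares) and UUO (orange triangles). The UUO medians go from -0.03 in the shortest class to 0.07 in the longest, and the sham medians stay between -0.08 and -0.07.

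Just outside the threshold lay Tmsb10, the actin-sequestering thymosin beta 10 gene, at -0.47 (limma adjusted p = 0.0526), and Arntl. Rbm38, Thoc6, Ptrh2, Ilkap, Tmub2 and Minos1 followed at 0.0588. The nearest genes inside were Rpl36a-ps1 (0.0437), Eif5b and Mrpl52 (both 0.0432). Gpatch4, a G-patch protein gene named after its values were seen, was at 8.77, 12.8, 9.09 and 8.6 FPKM in sham vehicle and at 2.28 to 7.5, median 6.94, with drug. In UUO kidneys the level was 12.0, 11.8, 15.0 and 13.2 FPKM with vehicle and 3.34 to 11.2, median 9.5, with drug. Its groups did not overlap in either surgery, a separation in the same direction in both that 2 of 13127 genes showed (0.0152%), but its difference of -0.57 (SE 0.164) did not pass (limma adjusted p = 0.156).

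The same contrast within each surgery, in the fit with an interaction, shared 1 call with the 12, Dbp in UUO. In sham kidneys 27 genes passed (0.206%), all lower, with 250 higher and 1583 lower at an unadjusted p under 0.05. Of all tested genes 30.5% were above 0 in sham, with a median of -0.07. After median-of-ratios scaling the sham median was 0.01, and 8 genes passed, 1 higher and 7 lower. In UUO kidneys 3 genes passed (0.0229%), all higher. No gene passed in both, none of the 27 had an unadjusted p under 0.05 in UUO, and 12 of them had the same sign there. These contrasts share no library, and across the 13127 genes their differences had a Pearson r of -0.01 and a Spearman rho of -0.01, given as a description since genes are not replicates. No gene passed the limma test of the interaction itself (0%), with 1462 at an unadjusted p under 0.05 and a smallest adjusted p of 0.144 (Dsel), so a difference between the surgeries was not shown for any single gene. Without UUO vehicle 2 the interaction gave 4 genes, and without UUO vehicle 3 or UUO late 2 it gave 1.

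Among the 27, Ddx17, an RNA helicase gene, averaged 42.9 FPKM with vehicle and 27.4 with drug (-0.63, limma adjusted p = 0.00775; UUO -0.02). Josd2, a deubiquitinase gene, was at 11.9, 15.8, 15.4 and 13.9 FPKM in sham vehicle and at 6.99 to 10.0, median 8.70, in sham drug kidneys, without overlap (-0.67, SE 0.102, limma adjusted p = 0.00775; UUO 0.04). Scarf1, a scavenger receptor gene of endothelium, was at 4.83, 5.04, 5.88 and 4.39 FPKM with vehicle and at 1.95 to 3.32, median 2.87, with drug, without overlap (-0.66, SE 0.138, limma adjusted p = 0.0456; UUO 0.09). Sdf2l1, which encodes a protein of the endoplasmic reticulum chaperone complex, was at 8.42, 35.6, 10.3 and 19.6 FPKM with vehicle and at 4.42 to 8.33, median 5.26, with drug. The Sdf2l1 groups did not overlap, but its vehicle libraries differed among themselves by more than the drug libraries did. The difference of Sdf2l1 was -1.35 (SE 0.255, limma adjusted p = 0.0349), with -0.12 in UUO. Of all tested genes, 3.66% had sham groups set apart downward in this way. The test that chose these genes used the same libraries, so the separation is no further support.

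Of 26 tested genes of splicing factors and nuclear speckles, 2 fell in sham, the SR protein genes Srsf2 (57.5 to 43.1 FPKM) and Srsf6 (35.5 to 26.9), with limma adjusted p of 0.0325 and 0.0387, beside 0.206% of all tested genes. The list's median was -0.32 in sham, beside -0.07 over all tested genes there, and 0.01 in UUO. Of 22 endoplasmic reticulum stress genes, Sdf2l1 alone passed in sham, with a list median of -0.31. The podocyte list of 11 genes had no call and medians of -0.31 in sham and 0.15 in UUO, and the proximal tubule list of 34 genes had none and medians of 0.20 and -0.38. The summed podocyte markers were 32.6 to 65.4 FPKM with vehicle, 21.3 to 34.8 with the early and 20.0 to 23.9 with the late course in sham, and the part of cell makeup in the sham calls was not tested. The sham count was 9 with estimated depth as a further term, chosen after the data were seen. It was 8 after median-of-ratios scaling and 112 with a pseudocount of 0.1. Of the 27 sham calls, 6, 7 and 26 were among these, in the same order. Estimated depth was 7.75 to 8.89 M fragments in sham late and 10.39 to 10.78 M in sham vehicle. Depth and the late course are thus joined in sham, so the fit is no clean control for depth. Leaving out a sham library gave from 3 (sham late 2 or sham late 4) to 63 (sham early 1), with 5 without sham vehicle 1, sham vehicle 3, sham early 2 or sham late 1, 7 without sham vehicle 2, 8 without sham late 3, 9 without sham vehicle 4 and 16 without sham early 3. Through the shared estimate of spread, leaving out a UUO library gave 51 (UUO early 4), 58 (UUO late 1) and 13 (UUO late 3).

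In UUO, Dbp rose (above), with Dsel and Slco2b1. Dsel, a dermatan sulfate epimerase-like gene, was at 0.0599, 0.117, 0.0148 and 0.0402 FPKM in UUO vehicle, at 4.61, 3.00, 3.30 and 3.47 in UUO early and at 2.72, 0.0271, 3.72 and 5.19 in UUO late kidneys. UUO late 2 thus lay at the vehicle level and the other 7 drug libraries far above it (1.86, SE 0.28, limma adjusted p = 0.0123; sham -0.21). Slco2b1, an organic anion transporter gene, was at 0.149, 7.96, 0.837 and 0.455 FPKM in UUO vehicle, at 10.5, 11.8, 9.30 and 6.34 in UUO early and at 9.32, 11.9, 11.2 and 21.1 in UUO late kidneys (2.38, SE 0.422, limma adjusted p = 0.0457; sham 0.08). UUO vehicle 2 lay within the drug range. The call for Slco2b1 held in 7 of 30 alternatives, that for Dbp in UUO in 12 and that for Dsel in 29. With the length slope as a further term all 3 were lost, Dsel at a limma adjusted p of 0.495, Dbp at 0.67 and Slco2b1 at 0.79. The UUO count was 9 without UUO vehicle 2, 5 without sham vehicle 1 and 1 without sham vehicle 2, sham early 2, sham early 3, sham early 4, UUO early 1, UUO early 2, UUO early 3, sham late 2, sham late 3, UUO late 2 or UUO late 3.

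**Figure D4:**
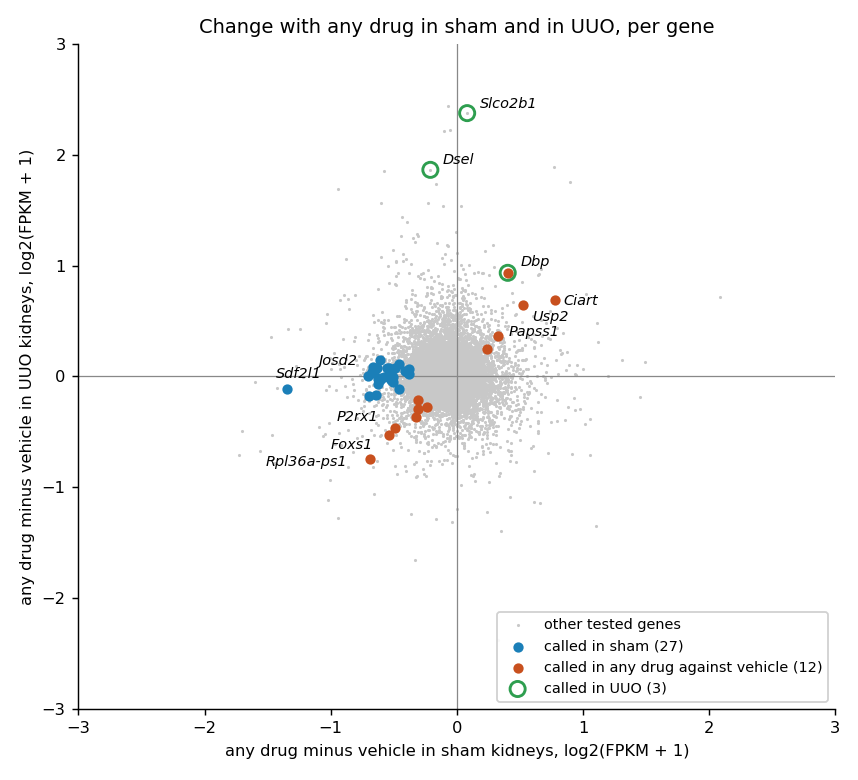
Drug minus vehicle difference in log2(FPKM + 1) in sham (x axis) and in UUO kidneys (y axis), 1 point per tested gene (13127). The 12 genes that passed across surgeries (orange) lie near the diagonal, the 27 that passed in sham (blue) lie left of 0 near the horizontal axis, and the 3 that passed in UUO are ringed in green. The axes show the libraries that gave these calls, so the places of the called genes follow in part from how they were chosen.

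The early and the late course were each set against the same 8 vehicle libraries, so their values share these and are given side by side only. The early course gave no limma call (0%), with 1321 genes at an unadjusted p under 0.05 and a smallest adjusted p of 0.0818 (Sf1, a splicing factor gene, at 0.51). It gave 3 without UUO late 4, 2 without UUO early 4 and 1 without sham vehicle 1, sham vehicle 2 or sham late 3. The late course gave 40 (0.305%), 6 higher and 34 lower. For Ciart the difference was 0.80 in the early and 0.67 in the late course, for Dbp 0.61 and 0.72, for Usp2 0.50 and 0.67, for P2rx1 -0.44 and -0.52, for Foxs1 -0.50 and -0.57 and for Rpl37a -0.28 and -0.33. The direct comparison of the early with the late course gave no limma call (0%), with 987 genes at an unadjusted p under 0.05 and a smallest adjusted p of 0.214 (Ctla2a). Without sham early 1 or UUO early 4 it gave 1. The calls of the late course alone therefore do not show that the courses differ.

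Among the 40, Arntl fell (limma adjusted p = 0.0481), Dbp, Usp2 and Papss1 rose, and 9 of 79 cytosolic ribosomal protein genes fell, Rpl37, Rpl38 and Rpl23 among them, beside 34 of all 13127 genes. Ctla2a, a cysteine protease inhibitor gene, averaged 4.63, 3.93 and 2.29 FPKM with vehicle, early and late drug in sham, and 12.7, 15.4 and 7.36 in UUO (-0.77, limma adjusted p = 0.0354). Hypk, which encodes a ribosome-associated partner of the N-terminal acetyltransferase NatA, averaged 12.2, 12.2 and 8.19 in sham and 16.4, 13.3 and 10.9 in UUO (-0.55, limma adjusted p = 0.0269). Cnot4, a ubiquitin ligase gene of the CCR4-NOT deadenylase, averaged 2.38, 2.30 and 3.21 in sham and 3.86, 4.08 and 6.44 in UUO (0.47, limma adjusted p = 0.0357). Of the 33 fallen genes with a length, 16 were in the shortest of the 5 length classes. The late count was 9 after median-of-ratios scaling. It was 0 without sham vehicle 4, UUO vehicle 3, sham late 1, sham late 3 or UUO late 2, 2 without sham late 2, 5 without UUO late 3, 10 without sham vehicle 3 or sham early 4, 14 without sham vehicle 2, 18 without sham late 4, 20 without UUO late 1, 21 without sham early 3, 23 without UUO vehicle 4 and 69 without UUO late 4.

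Neither the gene of the drug's own target nor a listed gene of its pathway passed. Adora2a, which encodes the receptor the drug blocks, was at 1.06, 1.04, 0.755 and 0.555 FPKM in sham vehicle and at 0.341 to 0.953, median 0.473, with drug. In UUO it was at 3.06, 3.36, 3.70 and 4.31 FPKM with vehicle and at 2.62 to 4.68, median 3.55, with drug, and the groups overlapped in both surgeries (-0.15, limma adjusted p = 0.539). Adora2b gave -0.04 (limma adjusted p = 0.951) and Adora1 0.05 (0.942), while Adora3 was not among the tested genes. None of 19 genes of adenosine formation, uptake and clearance passed (median -0.06), nor any of 21 of the cyclic AMP machinery (0.03) or 14 cyclic AMP responsive genes (0.01). Of all tested genes 0.0914% passed, so no call in lists of this size says little about the pathway. Receptor RNA does not measure receptor blockade.

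Genes of injury and fibrosis also missed the threshold across surgeries. Havcr1 was at 370, 339, 309 and 195 FPKM in UUO vehicle and at 92.5 to 237, median 208, in UUO drug kidneys, with overlap (-0.45 surgery adjusted, limma adjusted p = 0.321). Lcn2, a tubular injury gene, gave -0.14 (limma adjusted p = 0.909), and the collagen genes Col1a1 and Col3a1 gave -0.15 (0.843) and -0.25 (0.645). The surgery-adjusted differences of this paragraph join sham and UUO kidneys and do not give the change in UUO alone. The 22 genes of the tubular injury list had a median of -0.19 in sham and 0.03 in UUO. Tgfb1, the profibrotic cytokine gene, gave -0.02 (limma adjusted p = 0.976) and Adgre1, the macrophage F4/80 gene, 0.06 (0.901). Slc34a1, a proximal phosphate transporter gene, gave -0.16 (limma adjusted p = 0.894), Umod of the loop of Henle 0.28 (0.508), Aqp2 of principal cells 0.06 (0.976) and Cyp1a1, a target gene of the aryl hydrocarbon receptor, 0.01 (0.988).

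Of 46 gene lists, 2 held a gene that passed across surgeries, the core clock and clock output lists, and 44 held none. With 0.0914% of all tested genes passing, no call in a list says little about its genes. List medians were above 0 in 17 and below 0 in 29. The 33 extracellular matrix genes had a median of -0.13 (-0.29 in sham, 0.00 in UUO), the 24 cell cycle genes -0.18 with 1 above 0, the 19 immediate early genes -0.17, and the 23 macrophage genes -0.01 (-0.16 in sham, 0.19 in UUO). The 5 tested skeletal muscle genes had a median of 1.06 and 2.22 in UUO, where UUO early 4 carries muscle RNA. The plot of list medians shows the sham value left of the UUO value for most cell type lists, with the proximal tubule, urothelium and red blood cell lists the other way round.

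**Figure D5:**
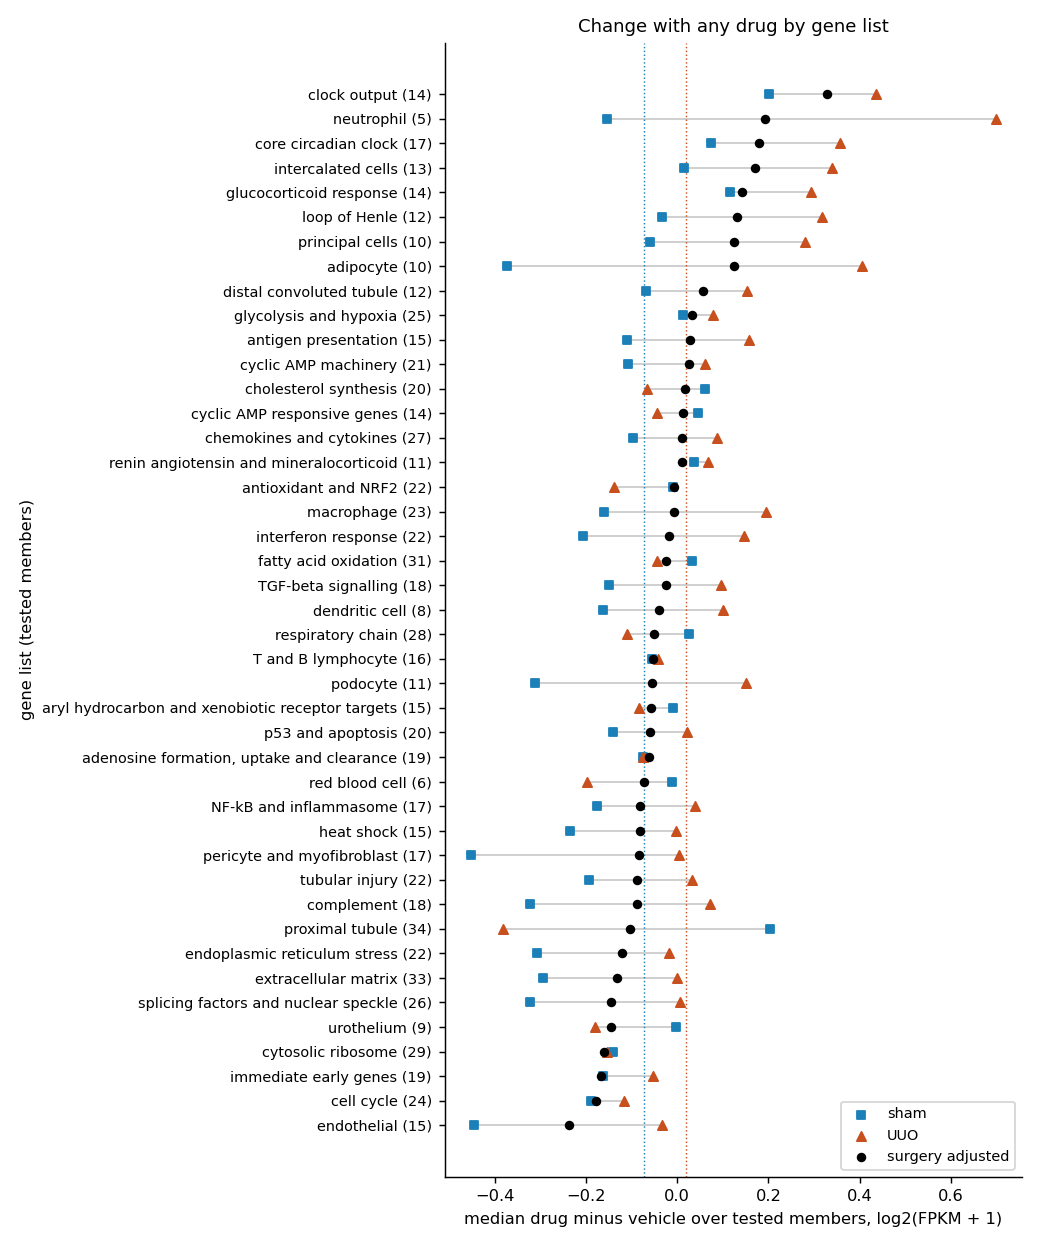
Median drug minus vehicle difference in log2(FPKM + 1) over the tested members of 43 gene lists (number in brackets; the skeletal muscle list and the lists with under 5 tested genes are not drawn), surgery adjusted (black), in sham (blue) and in UUO (orange); dotted lines are the medians of all tested genes in sham and in UUO. Of the lists drawn, clock output is highest across surgeries at 0.33 and endothelial lowest at -0.24.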

How the data were processed

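Per the file headers, the authors deposited FPKM for each gene and library. Reads were handled with cutadapt, HISAT2 and StringTie on GRCm38, per the submitters' processing notes; their versions are not given here, and the table's coordinates were taken as that build. Libraries came from a stranded kit, per the labels. Groups came from the labels, and the numbers of the vehicle libraries from the column names. No column of per-sample values was left out, and 1 emptied line was not used.

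From these FPKM, genes with at least 1 FPKM in at least 4 libraries were tested in limma 3.58.1 (R 4.3.3, Python 3.11.15) on log2(FPKM + 1) with a pseudocount of 1, moderated with a mean trend and adjusted by Benjamini-Hochberg over all tested genes. Surgery and any drug were the terms, leaving 21 residual degrees of freedom, and 20 with the interaction or with both courses. FPKM hold no counts, so depth was estimated from the value of 1 fragment and no counting interval was computed. Named genes were all that passed across surgeries, of which 1 is not reported here; in each other contrast all that passed where 10 or fewer did, otherwise the 4 largest each way with at least 2 FPKM in some arm, predicted genes being counted and not described; up to 4 members with the smallest p of a described list; and a fixed set of receptors and markers. The remaining named genes were chosen after their values were seen. The members and lists were chosen with earlier results of these data known.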

Additional observations from a re-analysis of the deposited data

Results flagged for a closer look

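The values below are libraries that lay far from the other 3 of their group, by the gap to the nearest library as a share of the group's range. Chance alone sets apart about 1 in 20 groups, and 16 of 186 were set apart here. None of these was tested for a cause.

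Among the genes that passed, P2rx1 was at 0.411 FPKM in sham late 2 against 0.241 to 0.26 in the other sham late libraries. Pcdh12 was at 1.4 FPKM in UUO early 4 against 2.04 to 2.08. Papss1 was at 36.1 FPKM in sham early 1 against 35.0 to 35.2, a small gap in a narrow group.

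Among injury, fibrosis and cell type genes, Havcr1 was at 98.9 FPKM in UUO early 4 against 208 to 237 in the rest of that group. Col1a1 was at 4.58 FPKM in sham vehicle 3 against 2.24 to 2.51, and at 1.3 in sham early 3 against 1.79 to 1.88. Acta2 was at 7.97 FPKM in sham late 2 against 9.97 to 10.3. Tgfb1 was at 2.61 FPKM in sham vehicle 1 against 1.93 to 1.99. Adgre1 was at 0.104 FPKM in sham early 2 against 0.373 to 0.423, and at 24.3 in UUO late 4 against 17.1 to 18.1. Slc34a1 was at 508 FPKM in sham vehicle 2 against 893 to 950, and at 825 in sham early 1 against 924 to 936.

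Among whole-library measures, the second principal component was -59.5 in UUO early 4, the library with muscle RNA, against 1.8 to 9.6, and -6.5 in UUO late 4 against 9.6 to 12.5. The slope of expression on transcript length was 0.00842 in UUO vehicle 2 against -0.0361 to -0.0308, and -0.0186 in sham early 3 against 0.0111 to 0.0148.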

How the results depend on the processing

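The 12 calls across surgeries numbered 15 with a pseudocount of 0.1, 12 without the filter on low values and 10 after median-of-ratios scaling. They numbered 1 (0 higher, 1 lower) with the same sum of FPKM per library, 143 (35 higher, 108 lower) with library weights and 26 (6 higher, 20 lower) from 1 mean per group. With estimated depth, a term chosen after the data were seen, they numbered 17, and with the length slope, also so chosen, 196. Leaving out 1 library gave 0 to 27. Of 36 alternatives, Rpl37a kept its call in 30, Usp2 in 27, Dbp and Ciart in 25, and Foxs1 and Pcdh12 in 23. Papss1 kept it in 18, Eif5b in 16, and Mrpl52 and Rpl36a-ps1 in 15. P2rx1 kept it in 33 of 35, since it was not tested with 1 FPKM required in at least 12 libraries. No direction of these genes turned.

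The sham count was 112 with a pseudocount of 0.1, 8 after median-of-ratios scaling, 9 with depth and 120 with the length slope, and 3 to 63 without 1 library. The UUO count was 1 with depth and 0 with the length slope, and 1 to 9 without 1 library. The interaction gave 1 without the filter and 0 to 4 without 1 library. The early course gave 3 after median-of-ratios scaling and 0 to 3 without 1 library, the late course 9 after that scaling, 203 with the length slope and 0 to 69 without 1 library, and early against late 2 with depth and 0 to 1 without 1 library. Equal replicate numbers did not pair libraries: 60 same-number pairs had a mean correlation of deviations of 0.0165 (-0.119 to 0.436) and 7 exceeded 0.1. With the number as a replicate block, 13 genes passed across surgeries, 10 of them shared, and 1 in UUO.

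Genes that had not passed changed sign as follows: Adgre1 to -0.068 with a pseudocount of 0.1, -0.058 with library weights and -0.0738 with the length slope; Tgfb1 to 0.00751 after median-of-ratios scaling; Adora1 to -0.0307 with weights and -0.0383 with the length slope; Slc34a1 to 0.0588 and 0.29, and Nr1d1 to -0.00879 and -0.0847, in the same order. Without 1 library, Adgre1 gave -0.035 to 0.118, Adora1 -0.0286 to 0.145, Adora2b -0.118 to 0.0313, Aqp2 -0.0809 to 0.229, Cyp1a1 -0.0204 to 0.0867, Lcn2 -0.272 to 0.0899 and Tgfb1 -0.0754 to 0.0266. The cause was not tested. FPKM without counts, 4 libraries a group, low levels of P2rx1, Foxs1 and Arntl, and copies of ribosomal genes limit these values.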
